A study of Homo sapiens and Mus musculus with 100 samples.

Results

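Vitamin B2 was withdrawn from HepG2 cells that carried a guide RNA against AHR, the gene of the aryl hydrocarbon receptor (AhR), and messenger RNA was measured at day 12. HepG2 is an established line from a human liver tumour that still secretes hepatocyte proteins. The comparison holds 6 of the 100 samples of the series: 3 libraries labelled HepG2_B2_minus_AhR_gRNA and 3 labelled HepG2_Cont_AhR_gRNA. They were taken by those column names from the deposited table of the guide RNA experiment and compared across its 28035 listed genes. The same table holds 3 libraries labelled HepG2_B2_minus_Cont_gRNA and 3 labelled HepG2_Cont_Cont_gRNA, which had the same treatments with a control guide RNA, and their values stand beside those with the AhR guide. "Deprived" below means the B2-minus libraries and "B2 control" the Cont libraries with the same guide. The sources used here do not say where the guide cuts, with which nuclease, whether cells with each guide were a clone or a pool, or what the control guide targets. The AhR guide and any other difference between the cell populations that carry the guides cannot be told apart.

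Riboflavin (vitamin B2) is turned by riboflavin kinase into FMN and then by FAD synthase into FAD, cofactors that many oxidoreductases of mitochondria, sterol synthesis and redox defence bind. AhR waits in the cytoplasm in a complex with HSP90 and p23. On binding a ligand it enters the nucleus, pairs with ARNT and binds DNA with the core letters GCGTG near its targets, of which CYP1A1, a monooxygenase, is the usual readout of receptor activity. In liver cells the receptor is known for control of genes of foreign-compound metabolism.

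The promoters shown here belong to CYP1A1, the readout of the receptor, and to MT1X and MT2A, metallothionein genes whose response to deprivation differed between the guides. Of the 10 genes in the metallothionein list, 5 have an entry in the RefSeq promoter table, and MT1M, MT1G, MT1E, MT1F and MT1A have none. They cover the 250 bases before the start of transcription in RefSeq (GRCh38.p14). Capitals mark GCGTG in the CYP1A1 promoter (chr15:74725529-74725778, minus strand) and TGCNCNC, the core letters of the metal response element, in the promoters of the metallothionein genes MT1X (chr16:56682220-56682469, plus strand) and MT2A (chr16:56608334-56608583, plus strand). Both strands were searched and overlapping matches were counted.
CYP1A1: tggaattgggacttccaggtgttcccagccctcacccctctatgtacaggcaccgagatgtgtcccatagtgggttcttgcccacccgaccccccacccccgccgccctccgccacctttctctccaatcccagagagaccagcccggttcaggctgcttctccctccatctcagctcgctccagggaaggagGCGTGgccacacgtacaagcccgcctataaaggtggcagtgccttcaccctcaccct
MT1X: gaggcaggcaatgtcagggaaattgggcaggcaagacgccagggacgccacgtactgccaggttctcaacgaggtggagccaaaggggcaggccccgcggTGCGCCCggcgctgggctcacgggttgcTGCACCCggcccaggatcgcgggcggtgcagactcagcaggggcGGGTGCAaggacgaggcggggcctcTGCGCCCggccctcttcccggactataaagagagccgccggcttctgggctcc
MT2A: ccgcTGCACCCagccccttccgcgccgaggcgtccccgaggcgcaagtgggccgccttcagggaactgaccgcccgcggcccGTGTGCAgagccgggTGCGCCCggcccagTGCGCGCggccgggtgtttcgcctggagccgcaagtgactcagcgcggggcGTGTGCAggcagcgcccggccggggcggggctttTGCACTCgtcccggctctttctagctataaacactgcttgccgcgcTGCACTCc
GCGTG occurred 1 time in the CYP1A1 window, as in the windows of 32.2% of 35116 promoters, which held it at least 1 time. TGCNCNC occurred 4 times in MT1X and 7 times in MT2A. At least 1 match was found in 49.1% of all promoter windows and at least 4 in 1.77%. Sequence further upstream than the 250 bases was not searched, so these counts do not cover all sites of a gene. A match is a description of the letters and was not tested as a binding site.

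Reads recovered from the 12 libraries of the guide RNA table numbered 6067500 to 7671300 per library. Of the listed genes, 11893 reached 1 TPM (a read share scaled by transcript length) in at least 3 libraries and were tested. Nothing in the labels says that the 3 replicates of a group came from separate cultures, so p-values measure the spread between these libraries, which may be technical. The summed level of 10 hepatocyte and HepG2 markers lay at 36600 to 37700 TPM in the B2 control and at 19000 to 19200 TPM in the deprived libraries with the AhR guide. All 10 markers were detected, and HNF4A, a transcription factor that maintains hepatocyte identity, averaged 26.0 and 24.6 TPM. Markers of fibroblasts summed to at most 1.61 TPM and those of endothelium to at most 0.807 TPM in any library. The 10 enterocyte markers summed to 19.5 to 24.3 TPM in the B2 control and to 15.1 to 18.0 TPM in the deprived libraries with the AhR guide. VIL1 was the 1 member that passed the filter and it fell (-0.42), and CDX1 was listed at 0 in all 12 libraries. Of the leukocyte markers, PTPRC, CSF1R and TYROBP lay near 0 (at most 0.0617 TPM on average with the AhR guide), while LYZ, the lysozyme gene, averaged 781 TPM in the B2 control and 387 TPM in the deprived libraries with that guide, and CD14 and CD68 rose (1.03 and 1.09). The part of these markers in the results was not tested.

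AHR messenger RNA itself was not lower with the AhR guide. In cells with that guide it stood at 4.48, 4.76 and 4.88 TPM in the B2 control and at 7.94, 8.09 and 7.06 TPM after deprivation. With the control guide it stood at 4.54, 4.37 and 6.51 TPM and at 8.26, 6.09 and 6.07 TPM. The libraries of both guides overlapped in each condition: the log2 difference, AhR guide minus control guide, was -0.09 ± 0.13 (SE) in the B2 control (adjusted p = 0.641) and 0.17 ± 0.13 in the deprived libraries (adjusted p = 0.479). The reads come from the 3′ end of the transcript, and a guide that changes the coding sequence need not remove it, so this level does not check the knockout. Deprivation raised AHR with the AhR guide, by 0.61 ± 0.13 on the log2(TPM + 1) scale (adjusted p = 0.00158), and every deprived library lay above every B2 control library. ARNT, its partner, rose by 0.47 ± 0.11 (adjusted p = 0.0024), from a mean of 2.59 to 3.95 TPM. PTGES3 (p23), a co-chaperone of the waiting receptor, rose by 0.44 ± 0.06. The HSP90 genes HSP90AA1 (-0.11) and HSP90AB1 (-0.04) did not pass the test. In all, 4 of the 6 tested genes of the receptor and its partners rose, where 37.6% of all tested genes rose and 15.6% fell. After quantile normalization or median scaling 4 rose and 2 fell.

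CYP1A1 did not pass the test of deprivation in cells with the AhR guide. It stood at 1.84, 1.90 and 1.92 TPM in the B2 control and at 1.83, 1.16 and 2.22 TPM after deprivation, so the deprived libraries lay on both sides of the controls (log2 fold change -0.10 ± 0.12, adjusted p = 0.535). In cells with the control guide it went from 4.45, 4.40 and 3.75 TPM to 36.2, 32.0 and 32.4 TPM, a log2 fold change of 2.73 ± 0.12 (adjusted p = 4.88e-10). The deprivation effects differed by -2.83 ± 0.17, AhR guide minus control guide (adjusted p = 1.08e-06). CYP1A1 was lower with the AhR guide by -0.85 ± 0.12 already in the B2 control (adjusted p = 0.000129) and by -3.68 ± 0.12 in the deprived libraries (adjusted p = 1.02e-09).

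UGT1A6, NQO1 and SLC7A5, also AhR targets, rose with either guide. UGT1A6, a glucuronosyltransferase of foreign compounds, stood at 0.566, 0.493 and 0.517 TPM in the B2 control and at 2.73, 1.47 and 1.74 TPM after deprivation with the AhR guide (log2 fold change 0.94 ± 0.17, adjusted p = 0.00047). In cells with the control guide it went from 1.90, 2.78 and 1.23 TPM to 11.2, 10.4 and 11.2 TPM (2.04 ± 0.17). All deprived libraries lay above their controls with either guide, and the effects differed by -1.09 ± 0.25 (adjusted p = 0.00979, up to 0.166 under other settings). The B2 control libraries with the AhR guide lay below 1 TPM, where log2(TPM + 1) understates changes. The size of this difference therefore depends on the scale. The 9 UGT1A entries share their 3′ exons and had nearly the same values, with fold changes of 0.94 to 0.99 with the AhR guide, so the reads cannot be assigned to UGT1A6 rather than to another member of the locus. NQO1, a FAD-dependent quinone reductase that NRF2 also controls, rose from 145, 151 and 144 TPM to 250, 243 and 250 TPM with the AhR guide (0.75 ± 0.08, adjusted p = 4.41e-06) and by 1.49 ± 0.08 with the control guide. The deprived levels with either guide were close, at means of 248 and 235 TPM, while the B2 control level was higher with the AhR guide (147 against 83.6 TPM). SLC7A5, a carrier of large neutral amino acids, rose by 0.91 ± 0.09 with the AhR guide and by 1.20 ± 0.09 with the control guide (adjusted p of the difference 0.154). TIPARP, a feedback repressor of the receptor, changed by 0.16 ± 0.11 (adjusted p = 0.235). CYP1A2, CYP1B1, AHRR, ALDH3A1 and EREG lay below the filter on low values in all groups.

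**Figure D1:**
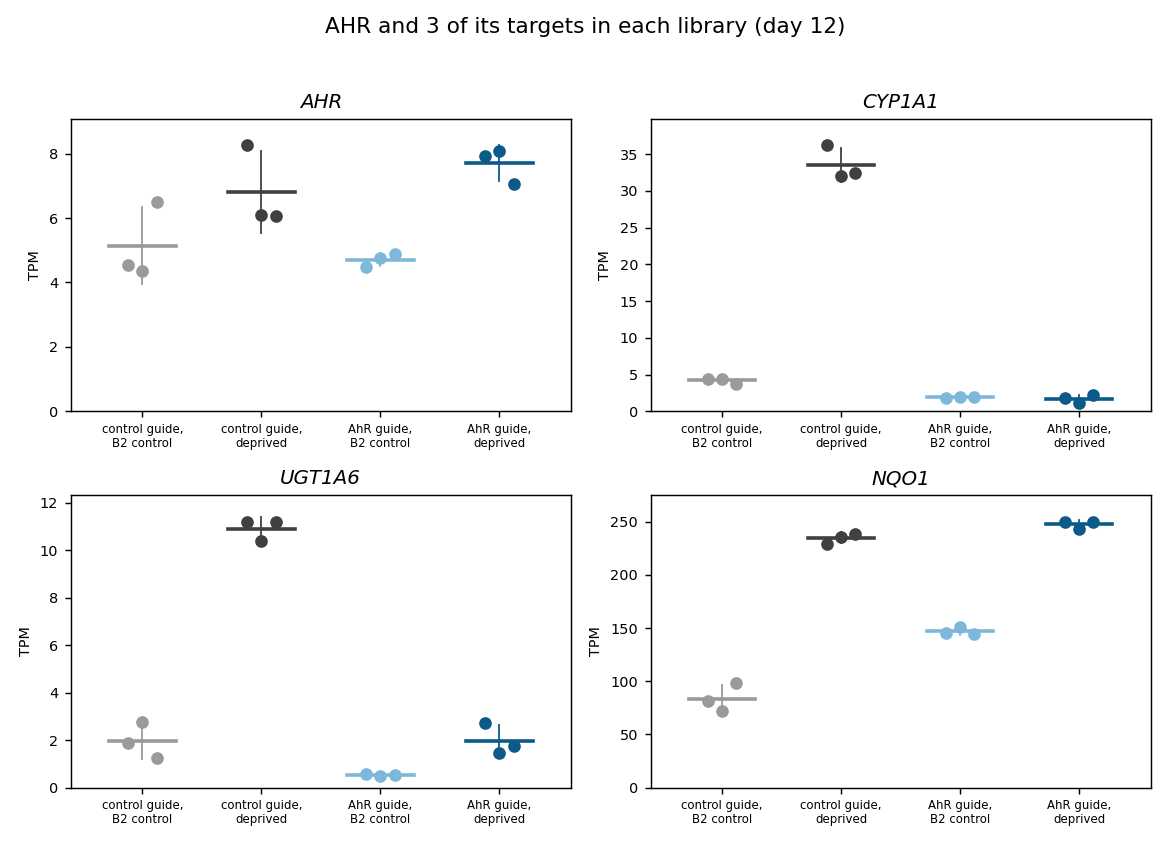
AHR, CYP1A1, UGT1A6 and NQO1 in TPM (vertical axes from 0) in each of the 12 libraries, by guide and condition, where points are libraries, wide bars are means and thin bars are SD (n = 3). The 3 deprived libraries with the control guide reach 32.0 to 36.2 TPM of CYP1A1, while those with the AhR guide stay at 1.16 to 2.22 TPM.

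The kynurenine pathway, which makes AhR ligands from tryptophan, had low levels of the enzymes at its entry. IDO1 and IDO2 were listed at 0 in all 6 libraries with the AhR guide, and TDO2 averaged 0.041 TPM in the deprived group. Of the 8 tested members, KYNU (kynureninase) rose by 0.41 ± 0.13, and QPRT and AFMID, which act late and early in the pathway, fell by 0.37 and by 0.25. Among all tested genes 37.6% rose and 15.6% fell. The KYNU call was lost without AhR guide control replicate 1 (adjusted p = 0.0591) or 3 (0.0703) and without AhR guide deprived replicate 1 (0.0887) or 2 (0.0747).

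Of 4 tested genes of riboflavin transport and cofactor synthesis 3 rose (37.6% of all tested genes rose). RFK (riboflavin kinase) went from 8.97, 9.34 and 9.24 TPM to 15.4, 19.0 and 18.7 TPM with the AhR guide (log2 fold change 0.87 ± 0.09). FLAD1 (FAD synthase) went from 3.55, 3.06 and 2.13 TPM to 6.30, 5.47 and 5.67 TPM (0.81 ± 0.12). In both, all deprived libraries lay above all controls. ENPP1, a surface enzyme that can split FAD, rose by 0.45 ± 0.09 with the AhR guide and changed by -0.24 ± 0.09 with the control guide. The riboflavin transporter SLC52A2 had a log2 fold change of 0.14 and did not pass the test, and SLC52A1 and SLC52A3 were below the filter. Enzymes that use the flavin cofactors moved in either direction. Of 13 tested acyl-CoA dehydrogenases and electron transfer flavoproteins, ACADVL rose by 0.50 ± 0.08, ACADSB and ETFB fell by 0.24 and by 0.23, and 10 did not pass. Of 40 other FAD and FMN enzymes, 13 rose and 10 fell, a balance that turned to 9 against 18 after quantile normalization and to 9 against 19 after median scaling. The share that rose was no higher than the 37.6% of all tested genes, and the median relative to all genes was -0.20. TXNRD1 (thioredoxin reductase, 1.34 ± 0.08), SMOX (spermine oxidase, 1.11 ± 0.13) and AIFM2 (a ubiquinone reductase that limits lipid peroxidation, 1.05 ± 0.06) rose, and SQLE (squalene epoxidase) fell by 1.33.

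Across all tested genes, deprivation with the AhR guide raised 4476 (37.6%) and lowered 1855 (15.6%) at an adjusted p under 0.05, of which 430 and 283 changed by at least 1 on the log2 scale. With the control guide 5183 (43.6%) rose and 2033 (17.1%) fell. The balance between higher and lower genes moved with the scaling, and the median gene shifted by 0.15 with the AhR guide and by 0.20 with the control guide. After quantile normalization 2996 rose and 2828 fell with the AhR guide, and after median scaling 2832 and 2959. Medians of gene lists below are therefore given after subtraction of the all-gene median of the same guide. Counts of list members with the AhR guide stand beside 37.6% of all tested genes that rose and 15.6% that fell. The shares that rose among iron handling genes (6 of 17), haem genes (4 of 12), glutathione transferases (4 of 12) and cytosolic ribosomal proteins (22 of 76) lay near or below that of all genes. They are no result about a rise in those lists. In the same order 6, 0, 4 and 12 members fell, a larger share than the 15.6% of all genes for iron handling and glutathione transferases. The relative medians of these 2 lists were -0.06 and -0.32. The comparisons of both guides share no library. Of the genes raised with the AhR guide, 3636 (81.2%) also rose with the control guide, and they make up 70.2% of those raised there. Of the genes lowered with the AhR guide, 1271 (68.5%) also fell with the control guide, or 62.5% of those lowered there. Another 61 genes rose with the AhR guide and fell with the control guide, and 55 did the opposite. Fold changes correlated across genes (Pearson r = 0.785 over 11893 genes, which are not independent), with an SD of 0.522 with the AhR guide and 0.607 with the control guide.

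The difference between the guides was tested in the same fit. The deprivation effect was higher with the AhR guide in 733 genes (6.16%) and lower in 979 (8.23%). After quantile normalization these were 897 and 716, after median scaling 857 and 748, and with voom on recovered reads 713 and 1982. Counts of list members in this test were not repeated under these settings. Of the 979 lower ones, 379 rose with both guides, 337 rose with the control guide and did not pass with the AhR guide, and 55 rose with the control guide and fell with the AhR guide. Of the 733 higher ones, 222 fell with both guides, 253 fell with the control guide and did not pass with the AhR guide, and 61 fell with the control guide and rose with the AhR guide.

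**Figure D2:**
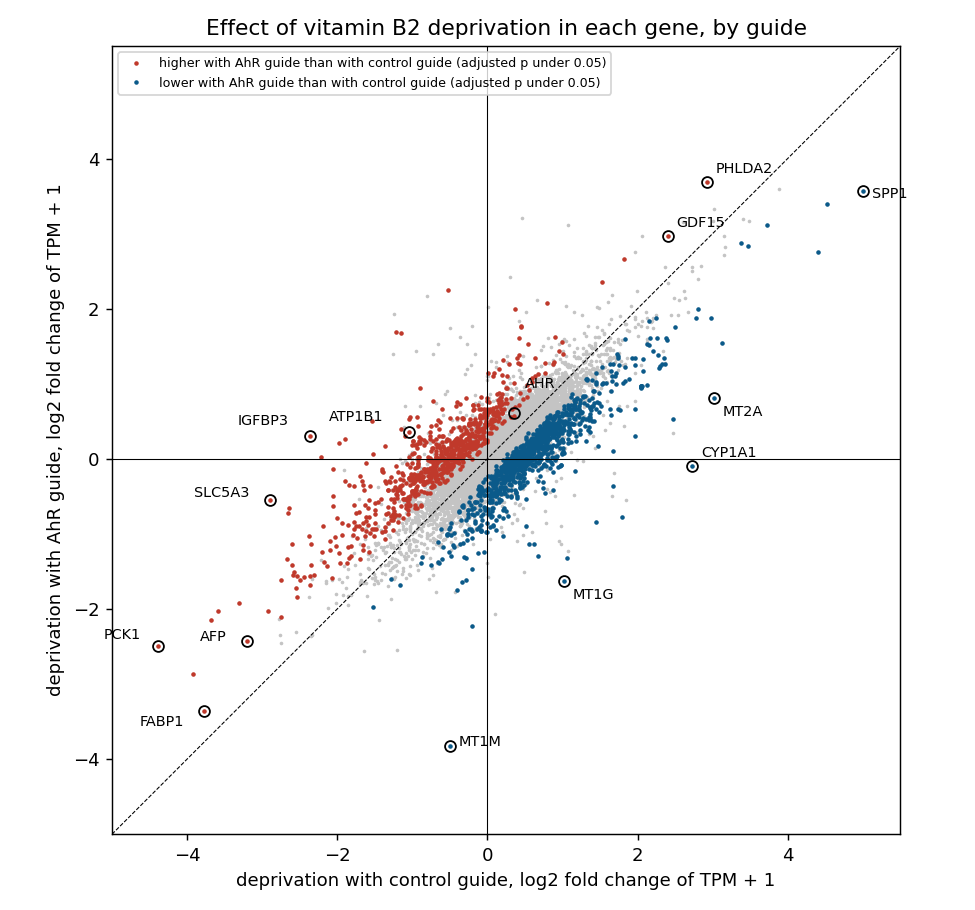
Log2 fold change of TPM + 1 on deprivation with the control guide (horizontal) and with the AhR guide (vertical) for 11893 genes; red and blue points passed the test of the difference between the guides (733 and 979 genes), and the dashed line marks equal effects. CYP1A1 lies at 2.73 and -0.10 and the metallothionein MT1M at -0.50 and -3.83, far below the line.

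The 12 genes with the highest fold change with the AhR guide were led by PHLDA2. PHLDA2, an imprinted gene that restrains growth, stood at 2.95, 3.11 and 3.29 TPM in the B2 control and at 47.2, 54.5 and 54.9 TPM after deprivation (log2 fold change 3.69 ± 0.08, adjusted p = 8.23e-13). SPP1 (osteopontin, a secreted phosphoprotein) went from 46.1, 49.0 and 47.4 TPM to 584, 559 and 585 TPM (3.57 ± 0.10, adjusted p = 4.24e-11). HAMP (hepcidin, the hormone that blocks iron export) went from 13.3, 10.3 and 13.4 TPM to 125, 139 and 152 TPM (3.39 ± 0.17, adjusted p = 5.21e-08). In each of these genes all deprived libraries lay far above all controls. TIMP1, an inhibitor of matrix metalloproteinases, rose by 3.59 ± 0.16, and SERPINE2, an inhibitor of thrombin and plasminogen activators, by 3.33 ± 0.12. CPLX2, a regulator of vesicle fusion, and VGF, a neuroendocrine secreted protein, rose from under 1 TPM on average (3.20 ± 0.11 and 3.17 ± 0.09). AKR1B10, an aldo-keto reductase under NRF2 control, rose by 3.17 ± 0.10, LY96, the co-receptor of TLR4, by 3.15 ± 0.20 and S100A11, a calcium-binding protein, by 3.12 ± 0.12. The small nucleolar RNAs SNORD12B and SNORD47 also passed (3.21 ± 0.58 and 3.11 ± 0.66). Their entries are very short and poly(A)-primed reads there can come from the host gene. All of the 12 except SNORD12B and SNORD47 rose with the control guide too. There the rise was larger for SPP1 (5.00), HAMP (4.53) and S100A11 (3.72) and smaller for PHLDA2 (2.92) by the test of the difference, and that of the other 8 did not pass. The B2 control levels of SPP1 and PHLDA2 differed between the guides as well. SPP1 averaged 14.5 TPM in the B2 control and 487 TPM after deprivation with the control guide, against 47.5 and 576 TPM with the AhR guide. PHLDA2 averaged 8.74 and 72.7 TPM with the control guide, against 3.12 and 52.2 TPM with the AhR guide. The S100A11 difference (adjusted p = 0.0281) was lost in 5 of the 12 fits that left out 1 library (adjusted p up to 0.0705 over all settings).

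The 12 lowest included genes of lipid handling, the urea cycle and gluconeogenesis. FABP1, the liver fatty acid binding protein, fell from 5570, 5310 and 5560 TPM to 555, 467 and 583 TPM (log2 fold change -3.36 ± 0.08, adjusted p = 1.5e-11). ARG1, the arginase of the urea cycle, fell from 12.0, 11.9 and 11.8 TPM to 1.12, 0.674 and 0.578 TPM (-2.86 ± 0.11, adjusted p = 1.88e-10). PCK1, which commits carbon to gluconeogenesis, fell from 9.22, 10.7 and 10.9 TPM to 0.895, 0.749 and 1.42 TPM (-2.49 ± 0.16, adjusted p = 5.29e-08). AFP (alpha-fetoprotein) fell from 3380, 3570 and 3760 TPM to 643, 637 and 722 TPM (-2.42 ± 0.06, adjusted p = 2.04e-12). In each of these all deprived libraries lay below all controls, and the fall was larger with the control guide: -3.77, -3.92, -4.39 and -3.20 in the same order. On the log2(TPM + 1) scale the starting level limits how far a gene can fall. ARG1 and PCK1 ended near 1 TPM with the AhR guide, so the sizes of their falls depend on the starting levels. The FABP1 difference (adjusted p = 0.0377) was lost in 9 of the 12 fits that left out 1 library, with adjusted p up to 0.37 over all settings, and that of PCK1 with voom on recovered reads (adjusted p = 0.128). FADS2, a fatty acid desaturase, fell by 2.45 and FDPS, which makes farnesyl diphosphate for sterol synthesis, by 2.36. RUSC1-AS1 fell by 2.35 beside it. It overlaps FDPS, and reads there cannot be assigned between them, since the sources used here state no strand setting for the counting. TNNI2, a troponin subunit (-2.34), and COL2A1, a fibrillar collagen (-2.30), fell with the control guide too (-2.76 and -2.55). SNORA80E, a small nucleolar RNA, fell by 2.54. The metallothioneins MT1M and MT1F complete the 12.

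**Figure D3:**
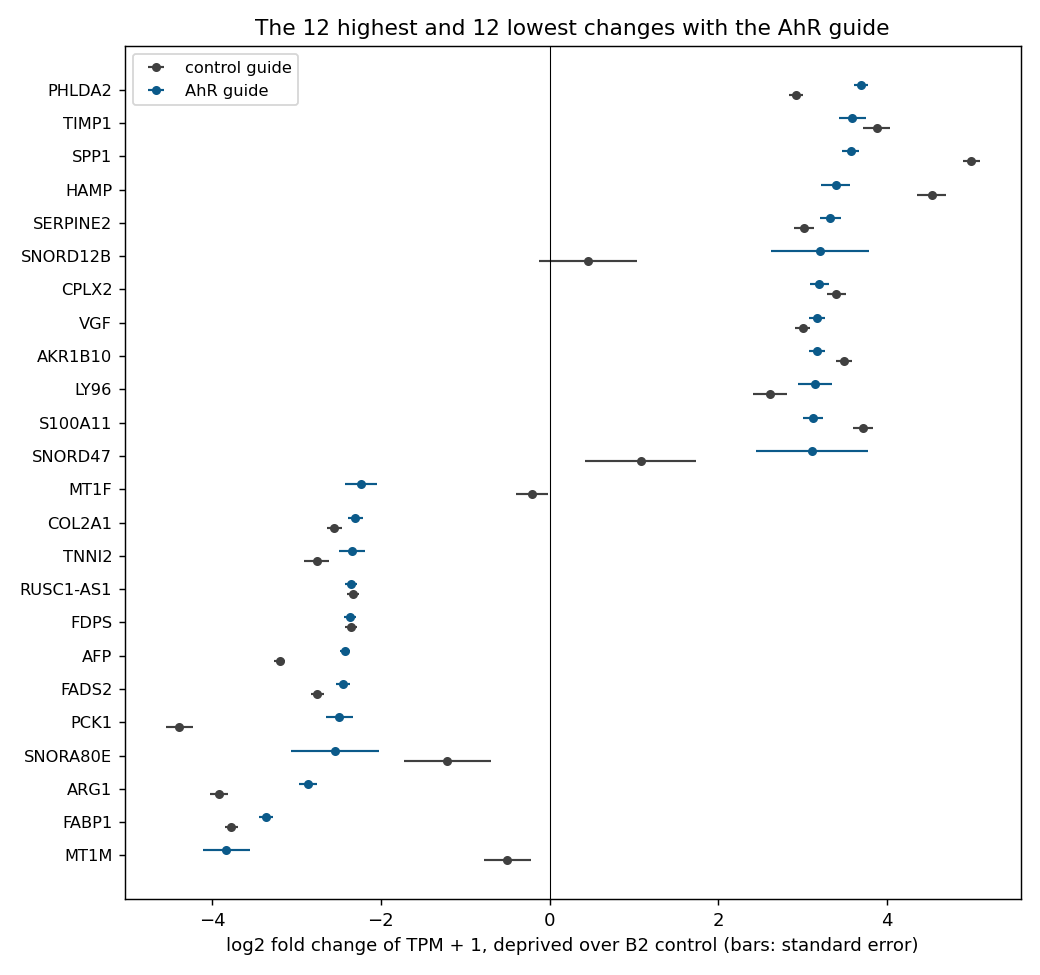
Log2 fold change of TPM + 1 (horizontal, bars are SE, n = 3 per group) of the 12 highest and 12 lowest genes with the AhR guide that passed the test and reached 10 TPM, with the control guide beside it. PHLDA2 is at 3.69 with the AhR guide and 2.92 with the control guide, and MT1M at -3.83 and -0.50.

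Metallothioneins are small cysteine-rich proteins that bind zinc and copper. Of 10 tested members of the list (the metallothioneins and the zinc exporter SLC30A1), 8 fell with the AhR guide, MT2A rose and SLC30A1 did not pass (0.28 ± 0.19). With the control guide 6 rose and the other 4 did not pass. The deprivation effect was lower with the AhR guide in 9 of the 10 (8.23% of all tested genes). The median relative to all genes was -1.28 with the AhR guide and 0.76 with the control guide. MT1G stood at 1590, 1480 and 1350 TPM in the B2 control and at 512, 454 and 460 TPM after deprivation with the AhR guide (log2 fold change -1.63 ± 0.27, adjusted p = 0.000918). With the control guide it stood at 100, 61.8 and 151 TPM and at 176, 205 and 220 TPM (1.02 ± 0.27, adjusted p = 0.00946). The B2 control level was thus higher with the AhR guide in every library, and the deprived levels of the guides lay nearer each other. MT1M showed the largest fall of all genes that met the naming rule. It went from 44.7, 44.4 and 38.7 TPM to 1.43, 2.72 and 2.17 TPM with the AhR guide (-3.83 ± 0.28, adjusted p = 9.51e-07), while it stayed at 0 to 1.58 TPM in all libraries with the control guide. The difference between the guides for MT1M was lost with a pseudocount of 0.1 (adjusted p = 0.203).

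MT1F fell from 668, 639 and 579 TPM to 148, 113 and 139 TPM (-2.23 ± 0.19, adjusted p = 6.53e-06) with the AhR guide and averaged 58.7 and 49.1 TPM with the control guide. MT1X, MT1E and MT1A fell with the AhR guide (-1.32 ± 0.15, -0.84 ± 0.20 and -0.36 ± 0.09) and rose with the control guide (1.06, 1.45 and 1.67). MT2A, the most ubiquitous metallothionein, rose with both guides. It went from 2780, 2500 and 2420 TPM to 4470, 4640 and 4340 TPM with the AhR guide (0.81 ± 0.08) and from 662, 570 and 600 TPM to 4460, 5490 and 4920 TPM with the control guide (3.02 ± 0.08). The deprived libraries of both guides overlapped, and the B2 control libraries did not. The difference of the deprivation effects was -2.65 ± 0.38 for MT1G, -2.38 ± 0.21 for MT1X and -2.21 ± 0.11 for MT2A. Metallothionein genes are near-identical copies and the counting could split reads between them, so the values of single members are uncertain.

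**Figure D4:**
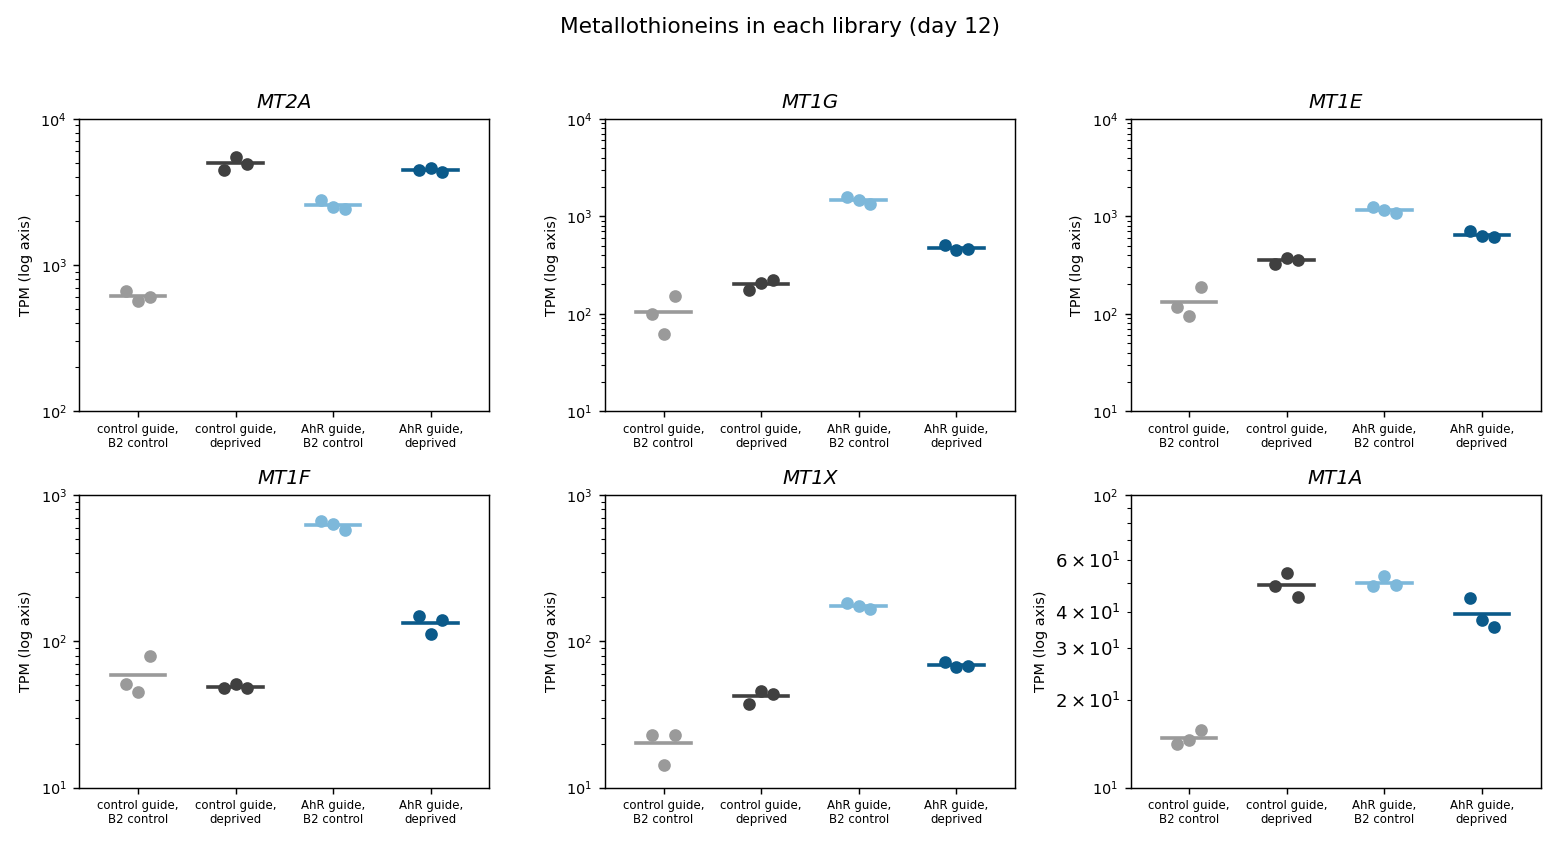
Metallothionein levels in TPM on log axes in each of the 12 libraries, by guide and condition, where points are libraries and bars are means. With the AhR guide the B2 control libraries of MT1G lie at 1350 to 1590 TPM, above all other groups, while MT2A reaches 4340 to 5490 TPM in the deprived libraries of either guide.

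Other deposited tables hold HepG2 cells whose labels name no guide. In one of them, with a time course, day 12 deprivation gave log2 fold changes of 2.69 for MT1G, 2.68 for MT1E and 4.23 for MT2A. In a further table the deprived cells without inhibitor gave -0.90 for MT1G, -2.06 for MT1F, -2.0 for MT1M, 1.51 for MT1A and 2.12 for MT2A, while MT1X (-0.15) and MT1E (-0.31) did not pass. With an AhR inhibitor MT1G (1.48), MT1E (1.57), MT1X (0.99), MT1A (0.98) and MT2A (2.82) rose, and MT1F (0.35) and MT1M (-0.43) did not pass. Of these 7 genes, MT1G, MT1E, MT1X and MT1A thus rose with the inhibitor and fell with the AhR guide. Their B2 control levels differed as well: MT1G averaged 53.4 TPM in the time course, 453 TPM in the table with inhibitors and 1470 TPM with the AhR guide. The tables were made separately, the libraries with and without inhibitor carry different dates in their column names, and no test was run between the tables. CYP1A1 changed by 2.45 in the time course and by 2.09 without inhibitor, against -0.90 with an AhR inhibitor. UGT1A6 changed by 1.42 in each of the former and by -0.17 (adjusted p = 0.197) with the inhibitor. NQO1 rose by 1.73, 1.99 and 1.75 in the same order. GSTA2, a glutathione transferase, changed by 2.89, 2.72 and 0.20 (adjusted p = 0.296), beside 0.67 with the AhR guide and 1.97 with the control guide. CPT1A, the gate of mitochondrial fatty acid oxidation, changed by 2.25, 2.22 and 0.54, beside 1.48 and 1.63 with the AhR and control guides. SPP1 rose by 6.55, 5.80 and 6.21 and PCK1 changed by -4.13, -4.54 and -4.95 in those cells. Genes of mitosis that fell with the AhR guide did not fall in each of those tables. TOP2A changed by 0.20, -1.28 and 1.02, BIRC5 by 0.20, -1.15 and 0.87, CCNB1 by 0.34, -0.81 and 1.21 and AURKB by 0.12, -0.93 and 1.11. The time course values of BIRC5 and AURKB did not pass. AHR changed by -0.19 (adjusted p = 0.0459), 0.95 and 0.30 (adjusted p = 0.239), beside 0.61 with the AhR guide.

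Of 28 tested targets of NRF2, the regulator of antioxidant genes, 24 rose and PRDX1 fell (-0.10), with a median of 1.03 relative to all genes. There were 23 that rose with the control guide, and the median was 1.22. SLC7A11, which imports cystine for glutathione, rose by 1.89 ± 0.17, the efflux pump ABCC3 by 1.82 ± 0.11 and the autophagy receptor SQSTM1 by 1.71 ± 0.06. The deprivation effect was lower with the AhR guide in 11 members and higher in 4 (8.23% and 6.16% of all tested genes). Of 12 glutathione transferases 4 rose and 4 fell. MGST1 rose by 1.25 ± 0.08 and GSTA2 by 0.67 ± 0.14, and MGST2 and GSTM4 fell by 0.62 and by 0.58. Of 12 genes of haem synthesis and breakdown 4 rose, among them HMOX1 (haem oxygenase, 1.40 ± 0.07), BLVRB (a biliverdin reductase, 1.24 ± 0.09) and UROD (0.38 ± 0.09). Iron handling genes were split, with 6 of 17 higher and 6 lower. Beside HAMP, the BMP target ID1 rose by 1.83 ± 0.06, and the plasma iron proteins TF (transferrin) and CP (ceruloplasmin) fell by 2.10 and by 1.72.

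Of 32 tested genes of the integrated stress response, which ATF4 drives when translation initiation is limited, 27 rose and ALDH18A1 fell (-0.96). The median relative to all genes was 0.65 with the AhR guide and 0.58 with the control guide. GDF15, a secreted stress hormone that p53 and ATF4 both raise, went from 420, 445 and 468 TPM to 3430, 3820 and 3240 TPM (2.97 ± 0.07), against 2.40 with the control guide. NUPR1, a stress-induced chromatin protein, rose by 2.11 ± 0.22 and ASNS, asparagine synthetase, by 1.55 ± 0.09. Of 24 p53 targets 23 rose, with a relative median of 0.89 (0.84 with the control guide). CDKN1A (p21, an inhibitor of the cell cycle) went from 27.9, 28.1 and 28.6 TPM to 144, 151 and 147 TPM (2.34 ± 0.06), MDM2 rose by 1.88 ± 0.07 and PLK3 by 1.66 ± 0.12. All deprived libraries lay above all controls for GDF15 and CDKN1A.

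Of 28 tested genes of DNA replication and mitosis 25 fell with the AhR guide, with a median of -1.25 relative to all genes, and TYMS rose (0.25). There were 18 that fell with the control guide, where the relative median was -0.70. The deprivation effect was lower with the AhR guide in 11 of the 28 (8.23% of all tested genes). TOP2A, which untangles DNA before division, fell by 1.81, from a mean of 210 to 59.0 TPM with the AhR guide and from 97.8 to 24.8 TPM with the control guide. BIRC5, CCNB1 and AURKB, which act in mitosis, fell by 1.67, 1.67 and 1.65. Of 20 chaperones of the endoplasmic reticulum 16 fell, among them PDIA4 (-1.33), HSP90B1 (-1.08), MANF (-1.01) and P4HB (-0.96), while HERPUD1 (0.29) and SEL1L (0.19) rose. Their relative median was -0.69 with the AhR guide and -0.53 with the control guide.

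Of 25 tested genes of cholesterol synthesis and sterol regulation, 23 fell with either guide, and with the AhR guide PMVK rose (0.31). The relative median was -1.39 with the AhR guide and -1.55 with the control guide. Beside FDPS, MVD, which makes isopentenyl diphosphate, fell from 50.4, 47.1 and 47.9 TPM to 12.8, 11.2 and 10.9 TPM (log2 fold change -1.97 ± 0.09), and all deprived libraries lay below all controls. Of 20 fatty acid and triglyceride synthesis genes 11 fell, led by FADS2, SCD (-1.83), ELOVL6 (-1.55) and ACSS2 (-1.54), and AGPAT2 rose (0.77). PPARA targets and fatty acid oxidation genes were mixed, with 5 of 18 higher and 8 lower (37.6% and 15.6% of all tested genes). Their relative median was -0.31. CPT1A rose by 1.48 ± 0.09, and beside FABP1 the peroxisomal enzymes EHHADH and ACAA1 fell by 0.50 and by 0.45.

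Of 15 carrier proteins of the albumin family and other plasma carriers 13 fell with either guide, with a relative median of -1.27 with the AhR guide and -1.29 with the control guide. AFP and TF led, with A1BG (-1.62) beside CP. Of 15 apolipoproteins and assembly factors 12 fell, among them APOA5 (-1.68), APOC3 (-1.60), APOB (-1.33) and LCAT (-1.31). Of 27 genes of coagulation, complement and protease inhibitors 16 fell with the AhR guide and 20 with the control guide. ITIH1 fell by 1.63, A2M by 1.56, ITIH2 by 1.24 and SERPIND1 by 1.24. In 15 of these 27 the deprivation effect was higher, here a smaller fall or a rise, with the AhR guide (6.16% of all tested genes). Of 13 acute phase genes 7 rose, including HAMP and HP (haptoglobin, 0.74 ± 0.10), while C3 (-1.16) and ITIH3 (-1.03) fell. The summed hepatocyte markers given above include AFP, TF and APOB of these lists, so their fall is no separate observation. TPM is a share of the reads of each library, so neither cell number nor total RNA per cell can be read from it. The cause of these changes was not tested.

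Of 7 tested urea cycle genes 3 rose and 2 fell (37.6% and 15.6% of all tested genes). The balance turned to 1 against 2 under quantile normalization and median scaling. Beside ARG1, NAGS rose by 1.40 ± 0.18, ASS1 by 0.32 ± 0.09 and SLC25A13 by 0.21 ± 0.07. The SLC25A13 call was lost without AhR guide control replicate 1 (adjusted p = 0.0549) and without AhR guide deprived replicate 2 (0.0533) or 3 (0.0613). Of 13 genes of bile acid synthesis and transport 6 fell, with ABCB4 (-1.43), SLC51A (-1.37), SLC27A5 (-0.58) and CYP27A1 (-0.39) in the lead, and 2 rose. Of 15 liver-enriched transcription factors 8 rose and FOXA2 fell (-0.43), where 37.6% of all tested genes rose and 15.6% fell. Their relative median was 0.09, and after quantile normalization 5 rose and 2 fell. CEBPB rose by 1.24 ± 0.11, ONECUT2 by 0.72 ± 0.09, FOXA1 by 0.64 ± 0.09 and ESRRA by 0.49 ± 0.08. Biliary and progenitor markers rose in 6 of 8: beside SPP1, the keratin KRT19 (1.88 ± 0.11), SOX4 (1.61 ± 0.07) and the claudin CLDN4 (1.39 ± 0.09), while SOX9 (-0.21) and GPC3 (-0.58) fell.

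Of 10 tested genes of gluconeogenesis and insulin repression, 4 rose and 2 fell with the AhR guide. This lay near the shares of all tested genes (37.6% and 15.6%) and is no result about the list. With the control guide 1 rose and 5 fell (43.6% and 17.1% of all tested genes). The deprivation effect was higher with the AhR guide in 5 of the 10 (6.16% of all tested genes). Beside PCK1, SLC37A4, the glucose-6-phosphate carrier, fell by 0.92, and IGFBP1 rose by 0.56 ± 0.11. Of 21 genes of the hypoxia response and glycolysis 13 fell with the AhR guide and 18 with the control guide. The deprivation effect was higher with the AhR guide in 10 of them (6.16% of all tested genes). CA9, a carbonic anhydrase, fell from 5.72, 5.61 and 3.86 TPM to 0.675, 0.354 and 0.390 TPM (-2.03 ± 0.17). PFKFB4 fell by 1.92, P4HA1 by 1.16 and LDHA by 1.07. VEGFA (0.55), ADM (0.41) and the glucose transporter SLC2A1 (0.63) rose.

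Among 60 respiratory chain genes of the nuclear genome, 32 rose and 5 fell with the AhR guide, and 46 rose with the control guide, with relative medians of 0.04 and 0.18. After quantile normalization 23 rose and 10 fell with the AhR guide, and after median scaling 17 rose and 13 fell. The deprivation effect was lower with the AhR guide in 23 (8.23% of all tested genes). UQCR11 rose by 0.82 ± 0.05, NDUFS7 by 0.76 ± 0.09, COX7B by 0.69 ± 0.08 and COX6A1 by 0.68 ± 0.05. Of 31 proteasome subunits 15 rose and 4 fell (37.6% and 15.6% of all tested genes), against 5 and 8 after median scaling. Their relative median was -0.01, so these counts are no result about the list. PSMD14 rose by 0.61 ± 0.06, PSMD8 by 0.49 ± 0.08 and PSMC4 by 0.41 ± 0.05, and PSMC3 fell by 0.58. Of 76 cytosolic ribosomal proteins 22 rose and 12 fell, against 10 and 25 after median scaling. RPL12 rose by 0.72 ± 0.05, RPL41 by 0.72 ± 0.14 and RPL36 by 0.54 ± 0.07, and RPL10A fell by 0.51. Ribosomal protein genes have many processed copies, so their reads are uncertain. Of 33 lysosome and proton pump genes 22 rose with either guide, among them CTSB (cathepsin B, 1.39 ± 0.06), ATP6V1E1 (1.03 ± 0.07), LAMP1 (0.86 ± 0.05) and ATP6V1H (0.74 ± 0.09).

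**Figure D5:**
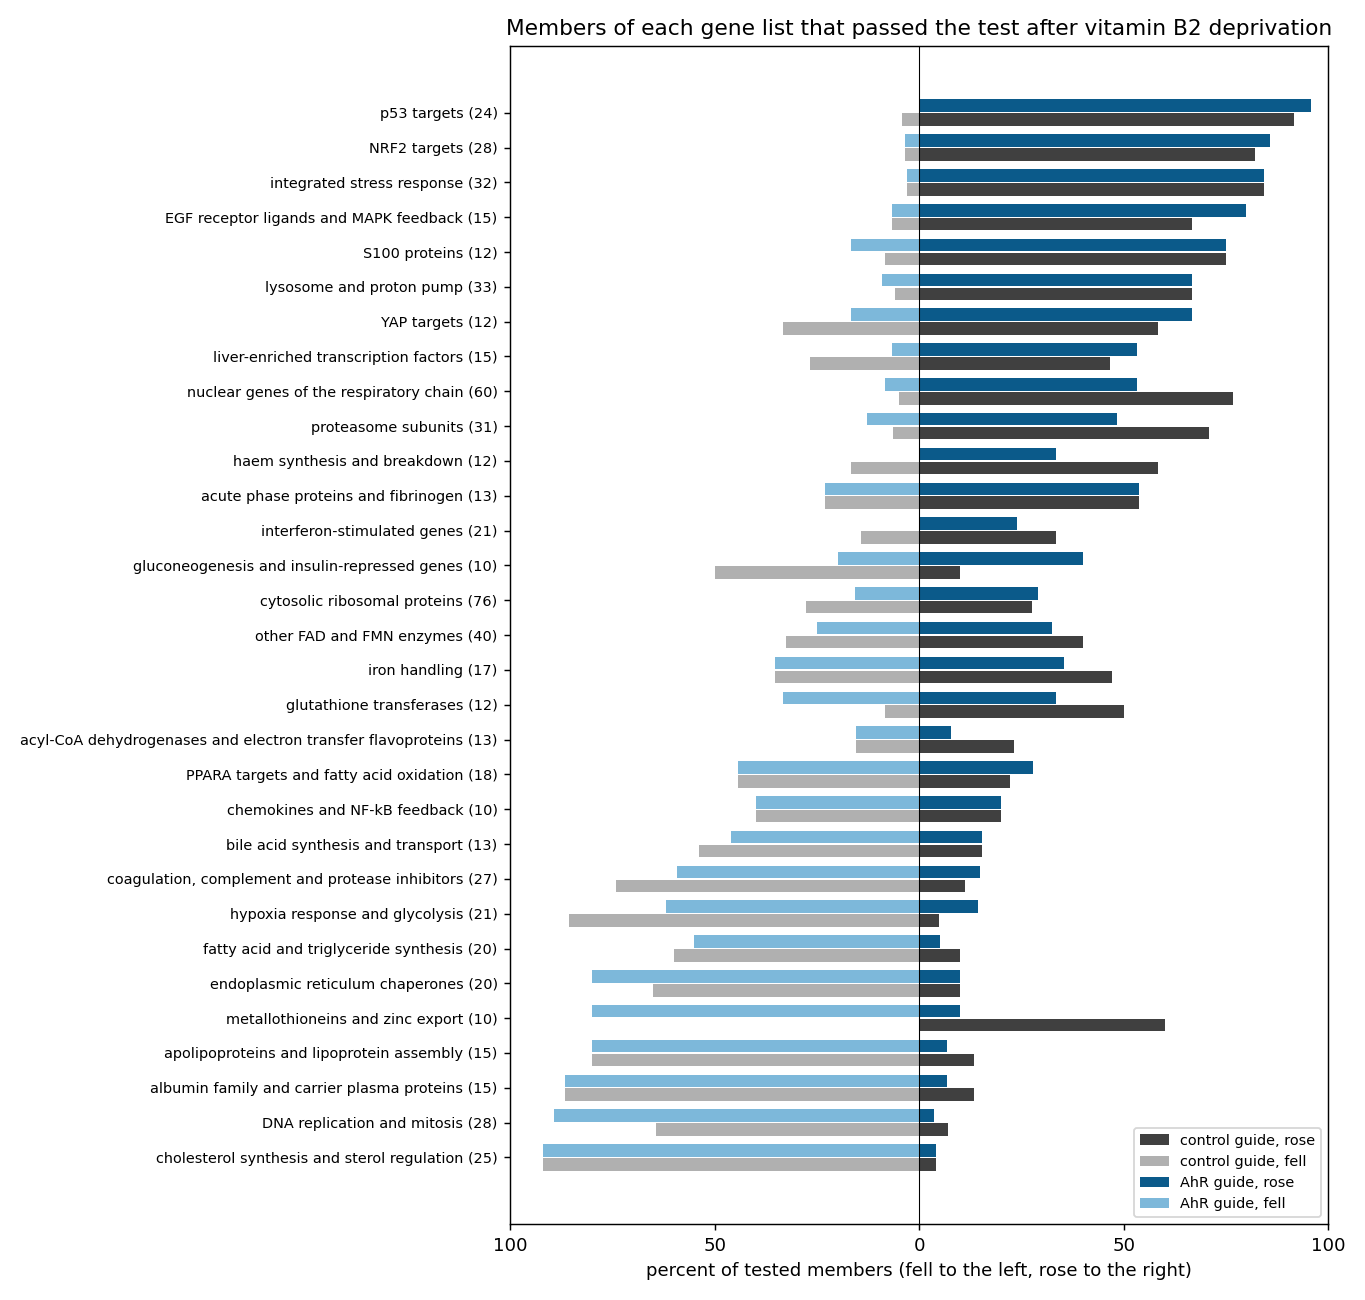
Percent of tested members that rose (right) or fell (left) on deprivation, in gene lists with at least 10 tested members (number tested in brackets). The AhR guide is in blue and the control guide in grey. The shares of all tested genes are not drawn: 37.6% rose and 15.6% fell with the AhR guide, and 43.6% and 17.1% with the control guide. In the metallothionein list the longer bars point opposite ways with the guides, with 8 of 10 lower with the AhR guide and 6 of 10 higher with the control guide.

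Of 15 EGF receptor ligands and MAPK feedback genes 12 rose and DUSP6 fell (-0.38). AREG (amphiregulin) went from 2.29, 1.12 and 2.81 TPM to 18.4, 21.8 and 17.7 TPM (2.76 ± 0.18), against 4.40 with the control guide. The phosphatase DUSP5 rose by 2.40 ± 0.11, IER3 by 1.77 ± 0.14 and the early response factor EGR1 by 1.57 ± 0.22. Of 12 YAP targets 8 rose, led by ANKRD1 (2.87 ± 0.09), with CRIM1 (0.67 ± 0.09) and CTGF (0.44 ± 0.08), and NT5E fell by 0.85. Of 12 S100 calcium-binding proteins 9 rose, among them S100P (2.66 ± 0.05) and S100A6 (1.28 ± 0.06), and S100A1 fell by 1.31. Of 7 genes of TIMP1 and the plasminogen system 5 rose, including TIMP2 (1.02 ± 0.11) beside TIMP1 and SERPINE2. Of 10 chemokines and NF-kB feedback genes 4 fell and 2 rose: CCL20 fell by 1.92, TNFAIP3 by 0.59 and NFKBIA by 0.46, and the adhesion molecule ICAM1 rose by 1.13 ± 0.09. Of 21 interferon-stimulated genes 5 rose, a lower share than the 37.6% of all tested genes, with a relative median of -0.07. Those that rose included IFITM2 (0.85 ± 0.13), IRF9 (0.64 ± 0.11), OAS1 (0.61 ± 0.13) and IFITM3 (0.39 ± 0.06). Of 7 imprinted growth genes 3 rose and 4 fell, with MEST (0.67 ± 0.08) beside PHLDA2 and with DLK1 (-1.56) and PEG10 (-1.15) on the other side.

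Among the genes with the highest difference between the guides, IGFBP3, SLC5A3, FILIP1L, ANGPTL4, G6PC and PCK1 fell with the control guide and started lower in the B2 control with the AhR guide. IGFBP3, a carrier of insulin-like growth factors, stood at 18.6, 20.6 and 10.3 TPM in the B2 control and at 3.08, 1.70 and 2.21 TPM after deprivation with the control guide. With the AhR guide it stood at 0.267, 0.078 and 0.383 TPM and at 0.436, 0.728 and 0.426 TPM, below all libraries with the control guide. The difference of effects was 2.66 ± 0.31 (adjusted p = 0.000189, up to 0.0878 under other settings). SLC5A3, the myo-inositol transporter that cells induce under osmotic stress, stood at 41.1, 34.2 and 26.3 TPM in the B2 control and at 4.07, 2.77 and 4.10 TPM after deprivation with the control guide. With the AhR guide it stood at 5.57, 6.15 and 6.57 TPM and at 4.41, 3.13 and 4.05 TPM, so the deprived libraries of the guides overlapped. It fell by 0.55 ± 0.16 with the AhR guide (adjusted p = 0.011), a call lost without AhR guide deprived replicate 2 (adjusted p = 0.0512), and the difference was 2.35 ± 0.23. Of the 6 tested inositol genes 4 rose with the AhR guide, with ISYNA1 (0.46 ± 0.08) and IMPA1 (0.30 ± 0.09) among them. The IMPA1 call was lost without AhR guide control replicate 1 (adjusted p = 0.0535) or 2 (0.0544) and without AhR guide deprived replicate 2 (0.0759).

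FILIP1L went from a mean of 83.0 to 20.2 TPM with the control guide. With the AhR guide it stood at 17.8, 21.1 and 22.2 TPM and at 22.0, 24.4 and 24.2 TPM (0.21 ± 0.12, adjusted p = 0.155). ANGPTL4, an inhibitor of lipoprotein lipase, fell from 19.9 to 2.31 TPM on average with the control guide and by 0.72 ± 0.15 with the AhR guide. G6PC, the phosphatase that releases glucose, fell from 44.7 to 9.88 TPM on average with the control guide and changed by -0.14 ± 0.15 (adjusted p = 0.485) with the AhR guide, where its B2 control libraries held 4.17, 4.73 and 4.14 TPM. UGT2B4, which conjugates bile acids and steroids, rose by 0.56 ± 0.12 with the AhR guide and fell by 1.03 with the control guide. ATP1B1, the beta subunit of the sodium pump, rose from 260, 273 and 285 TPM to 350, 333 and 366 TPM with the AhR guide (0.36 ± 0.07) and fell by 1.05 with the control guide. Of the 6 tested genes of the sodium pump and its FXYD regulators, FXYD1, FXYD2 and FXYD3 fell with the AhR guide (-1.57, -0.61 and -0.52). The deprivation effect was higher with the AhR guide in 4 of the 6 (6.16% of all tested genes). CTGF, a matricellular YAP target, rose by 0.44 with the AhR guide and fell by 0.75 with the control guide. SCARNA7, a small Cajal body RNA, rose by 2.00 ± 0.14 with the AhR guide, and MIR7703, a very short microRNA entry, did not pass there (-0.78 ± 0.47).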

How the data were processed

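Messenger RNA was counted in 12 HepG2 libraries made with a QuantSeq 3′ kit, per the labels' protocols. The deposited values are TPM per transcript made with HOMER, per the file headers; STAR, HOMER, Bowtie2 and build hg38 are listed in the submitters' processing notes, without versions or roles. TPM was used as deposited; the listed genes summed to 373465 to 384737 per library. Low values were whole multiples of 1 read (100% within 0.1), which gave 6067500 to 7671300 reads.

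Genes with at least 1 TPM in at least 3 libraries were tested with limma 3.58.1 in R 4.3.3 on log2(TPM + 1), which understates changes of low genes. One model held 4 group means over the 12 libraries, with trended and robust variances, 5 contrasts and Benjamini-Hochberg adjustment over 11893 genes at 0.05. An adjusted p in the text is from this model. Other deposited HepG2 tables were fitted separately in the same way. The fit was tested on simulated data.

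Genes were named by rule: AhR targets, the 12 highest and lowest past the threshold at 10 TPM or more, up to 4 per gene list at 5 TPM or more, the 8 highest and lowest differences between guides, and the 4 largest of opposite direction. Genes named beyond the rule are other list members, chosen after their values were seen. The members and lists were chosen with earlier results of these data known, so they are no independent evidence of direction. Replicate numbers did not pair the samples (correlations of same-numbered libraries -0.06 to 0.016 over 3 pairs with the AhR guide). Alternatives were other pseudocounts, filters, scalings, variance settings, voom on recovered reads, a replicate block, the 6 libraries alone and each library left out. Some genes that the rule selected are not reported here.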

Additional observations from a re-analysis of the deposited data

Results flagged for a closer look

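Of 168 tested genes named by the rule and given in the text, 77 are listed here because the test of the difference itself passed. The change on deprivation differed between the AhR guide and the control guide (limma on log2(TPM + 1), adjusted p under 0.05). Genes named beyond the rule were not screened for this list. Each value is the log2 change with the AhR guide minus that with the control guide. Groups of 3 libraries are too small to test whether a single library is an outlier. Replicate 3 of the B2 control with the control guide differed most from its group (chi-square per gene on recovered reads 4.8 and 5.55). All other replicate pairs gave 2.1 to 3.01. That library enters every control guide change and every difference listed here.

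Among genes that rose with the control guide and rose less or did not pass with the AhR guide were CYP1A1 (-2.83), UGT1A6 (-1.09), NQO1 (-0.74), GSTA2 (-1.3), MGST1 (-0.72), TXNRD1 (-0.41), AIFM2 (-0.29), HMOX1 (-0.33) and UROD (-0.62). These genes come from several lists and were put together after their values were seen, so their shared sign is no result. The metallothioneins gave MT1M (-3.33), MT1G (-2.65), MT1X (-2.38), MT1E (-2.3), MT2A (-2.21), MT1A (-2.03) and MT1F (-2.02). The microRNA entry MIR7703, which did not pass with the AhR guide, gave -2.58.

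Among other genes that rose with both guides, the difference was negative for SPP1 (-1.43), HAMP (-1.14), KRT19 (-1.09), AREG (-1.64), S100A11 (-0.6), ANKRD1 (-0.51) and HP (-0.49) and positive for PHLDA2 (0.77), GDF15 (0.57), S100P (0.84), IER3 (1.32), ICAM1 (0.45) and SCARNA7 (1.63). Genes that fell with the control guide and fell less, did not pass or rose with the AhR guide gave IGFBP3 (2.66), SLC5A3 (2.35), FILIP1L (2.17), ANGPTL4 (1.93), G6PC (1.92), PCK1 (1.9), UGT2B4 (1.59), CA9 (1.55), P4HA1 (0.67), ATP1B1 (1.41), FXYD1 (0.87), CTGF (1.19), NT5E (0.64), CCL20 (1.39), NFKBIA (0.31), DLK1 (0.8) and PEG10 (0.49). Plasma proteins and lipid genes of the same kind gave ITIH3 (1.34), A2M (0.98), ITIH2 (0.97), SERPIND1 (0.35), A1BG (0.87), C3 (0.86), TF (0.65), CP (0.83), AFP (0.78), APOA5 (0.68), APOB (0.36), FABP1 (0.41), ARG1 (1.06), ELOVL6 (0.76) and SLC51A (0.8). Positive values were also found for ENPP1 (0.7), ACADVL (0.37), CTSB (0.38), IGFBP1 (0.66) and ONECUT2 (0.85). Negative values were also found for ETFB (-0.28), QPRT (-0.28), ID1 (-0.32), MVD (-0.45), PSMC3 (-0.34), PSMC4 (-0.39), LAMP1 (-0.28), SLC27A5 (-0.62), APOC3 (-0.31) and S100A1 (-0.44).

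The difference was lost when single libraries were left out for FABP1 (9 of the leave-outs), ACADVL (9), MVD (9), MIR7703 (9), AIFM2 (10), NFKBIA (8), QPRT (7), HMOX1 (7), ICAM1 (7), TXNRD1 (6), S100A11 (5), HP (5) and SLC27A5 (1). It was lost under another setting for UGT1A6, MT1M, PCK1, IGFBP3, ETFB, ID1, PSMC3, LAMP1, IGFBP1, SLC51A, APOC3 and APOB. The cause was not tested.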

How the results depend on the processing

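Of 168 tested genes named by the rule and given in the text, 162 passed for deprivation with the AhR guide. Under at least 1 of 22 alternatives 5 of these lost the call: KYNU, SLC25A13 and IMPA1 under scalings and leave-outs, SLC5A3 without 1 library and ASS1 under scalings. With the control guide 12 of 153 calls were lost somewhere, and of the differences between guides 25 of 77. No direction of a called gene among the 168 turned with the AhR guide. Genes named beyond the rule were not followed in this way. Among them, PRDX1, PMVK and TYMS lost their calls with the AhR guide after quantile normalization, and they are not a full list. There the chaperones that rose went from 2 to 1 and the hypoxia and glycolysis genes that rose from 3 to 2. After median scaling 2 values with the control guide turned, ETFB to -0.15 and IFITM3 to -0.03. The causes were not tested.

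Counting called genes among those with a mean of at least 5 TPM gave 4144 with the AhR guide and 4687 with the control guide, where fewer genes were tested. The difference between guides gave 2695 calls with voom on recovered reads, against 1712. Leaving out each library in turn gave 5603 to 6506 calls with the AhR guide, 6585 to 7169 with the control guide and 1240 to 2172 for the difference. The 2172 came without B2 control replicate 3 of the control guide, and all other leave-outs gave 1240 to 1533. The guide effect on CYP1A1 ranged from -0.91 to -0.81 in the B2 control and from -3.80 to -3.51 in deprived libraries. With a replicate block the calls numbered 6256, 7159 and 1608. The numbers share no pairing, and correlations of same-numbered libraries over all 18 pairs were -0.073 to 0.039.

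Quantile normalization moved list counts with the AhR guide. The members that fell numbered 2 for AhR and its partners, 4 for acyl-CoA dehydrogenases, 18 for other FAD and FMN enzymes, 0 for NRF2 targets, 4 for haem genes, 1 for p53 targets, 10 for the respiratory chain, 2 for liver transcription factors, 3 for interferon genes and 2 for inositol genes. Those that rose numbered 0 for the kynurenine pathway, 0 for cholesterol synthesis, 3 for PPARA targets, 0 for replication and mitosis, 1 for chaperones, 8 for proteasome subunits, 1 for the urea cycle, 1 for bile acid genes and 5 for liver transcription factors. Depth of 6067500 to 7671300 reads limits genes near 1 TPM.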
